A study of Mus musculus with 6 samples.

Results

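The genes described here encode the machinery that licenses replication origins and copies DNA. They are 52 genes chosen by name from a table of 54532 genes, and all 52 were found and were among the 15144 genes tested. RNA was sequenced from 2 groups of 3 libraries of mouse embryonic stem cells of strain 129SV. The first group is p53-deficient haploid cells, titled P53ki in the labels, given as P53 - haploid under genotype and as a knockout in the series design. The second is wild-type (WT) haploid cells, whose titles carry the name T3-1. Haploid embryonic stem cells hold a single chromosome set and tend to become diploid in culture and on differentiation, and the series asks how blocked apoptosis bears on that return. No agent or time course is given, and ploidy was not measured in these libraries.

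Before S phase, the origin recognition complex (ORC) binds origins and, with CDC6 and CDT1, loads the ring-shaped MCM2-7 helicase, a step called licensing. At the start of S phase the kinase CDC7 with its partner DBF4, together with CDC45 and the GINS complex, turns the loaded helicase on, and polymerases, the sliding clamp PCNA and the single-strand binding protein RPA follow at the fork. Many of these genes are known targets of E2F transcription factors, and embryonic stem cells, which spend much of their cycle in S phase, express them highly. In many cell types p53 lowers such genes through p21 (Cdkn1a), retinoblastoma-family proteins and the DREAM complex.

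The libraries held 11536412 to 21218976 rebuilt reads in p53-deficient cells and 17065841 to 20331905 in WT cells. Trp53, which encodes p53, read 9.71, 9.71 and 9.98 FPKM in p53-deficient libraries, against 64.5, 69.8 and 69.6 FPKM in WT libraries, and Cdkn1a read 10.1, 9.94 and 8.92 FPKM in p53-deficient libraries, against 87.6, 88.1 and 87.01 FPKM in WT libraries. Both were far lower in each p53-deficient library. The labels do not give separate cultures for the replicates, so the p-values rest on library-to-library spread that may be technical. The loss of p53 and any other difference between the cell lines cannot be told apart. The 10 embryonic stem cell markers were all detected, but 4 were higher and 5 lower in p53-deficient libraries. Their summed level was 2476 to 2542 FPKM in p53-deficient and 3452 to 3513 FPKM in WT libraries. Most of that gap was Dppa5a alone, at 1115, 1050 and 1060 FPKM in p53-deficient libraries, against 2039, 2002 and 1980 FPKM in WT libraries. Pou5f1 read 425, 396 and 401 FPKM in p53-deficient libraries, against 367, 376 and 370.4 FPKM in WT libraries. Log2 fold changes were -0.90 for Dppa5a, which had the highest level of the list, -0.57 for Nanog and 0.88 for Esrrb. Of 25 fibroblast markers, which feeder cells would carry, 23 were tested and all 23 were lower in p53-deficient libraries. Their summed level was 528 to 556 FPKM in p53-deficient libraries, against 1900.3 to 1908 FPKM in WT libraries, and no marker was at 0 throughout, with Col1a1 at 31.5, 29.9 and 31.4 FPKM in p53-deficient libraries. Y-linked genes, 4 in all, summed to 0.330 to 0.395 FPKM in p53-deficient and 3.51 to 3.94 FPKM in WT libraries. Primitive endoderm markers, 7 in all, summed to 1.73 to 2.12 FPKM in p53-deficient and 5.84 to 5.97 FPKM in WT libraries. Only 3 of them were tested, all 3 lower in p53-deficient libraries, and Pdgfra among these is also a fibroblast marker. The other 4 had a mean under 0.5 FPKM and did not move together. Among them Sox7 was higher in every p53-deficient library, at 0.548, 0.682 and 0.739 FPKM. Its WT libraries read 0.316, 0.261 and 0.294 FPKM. Gata4 was lower in every p53-deficient library, and Sox17 and Foxa2 overlapped between the groups. The part of these 4 marker lists in the results was not tested. In bulk RNA, fewer cells of a type and less RNA per cell cannot be told apart.

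Replication genes were mostly a little higher in p53-deficient cells, with the largest rise in Cdc6 and the largest fall, of under 1.5-fold, in Rrm2. FPKM is a read level divided by gene length and by library size, and a gene was called at a limma adjusted p under 0.05 over all genes tested. Of the 52 genes, 40 (76.9%) were called, against 66.5% of all genes tested. Those called higher numbered 34 (65.4%), where 35.3% of all genes tested were called higher. Lower calls numbered 6 (11.5%), where 31.3% of all genes were called lower, and 12 genes did not pass. The median log2 fold change was 0.17, against 0.028 over all genes tested. Members were well expressed, the lowest at a mean of 6.51 FPKM, and the shares over all genes shift with level. Among the 7752 genes of mean FPKM at least 5, 3676 were higher and 2268 lower, with a median of 0.097. The shares over all genes given below are not matched for level. Taken library by library against the WT mean, the median member stood at 0.20, 0.16 and 0.16 on the log2 scale in the p53-deficient libraries. Summed over the 52 genes, the level was 2114, 2073 and 2077 FPKM in p53-deficient libraries, against 1939, 1942 and 1928 FPKM in WT libraries. These sums did not overlap, but divided by the median ratios described next they were 2029, 2012 and 2017 in p53-deficient libraries, against 2011, 2017 and 2003 in WT libraries, and overlapped.

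These counts move with the scaling of the libraries. Among genes of mean FPKM at least 5, the typical gene was 1.03 to 1.04 times the mean library in p53-deficient libraries and 0.962 to 0.964 times in WT libraries. With each library divided by that ratio, 20 members were higher and 11 lower, where all genes gave 27.8% higher and 37.3% lower, and the median of the members was 0.073. Quantile normalization gave 26 higher and 11 lower, against 36.7% and 29.8% of all genes, and a median of 0.11. The 20 genes called higher after median ratio scaling, and the 6 lower genes, kept their call in each of the 16 alternatives run on single genes.

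**Figure D1:**
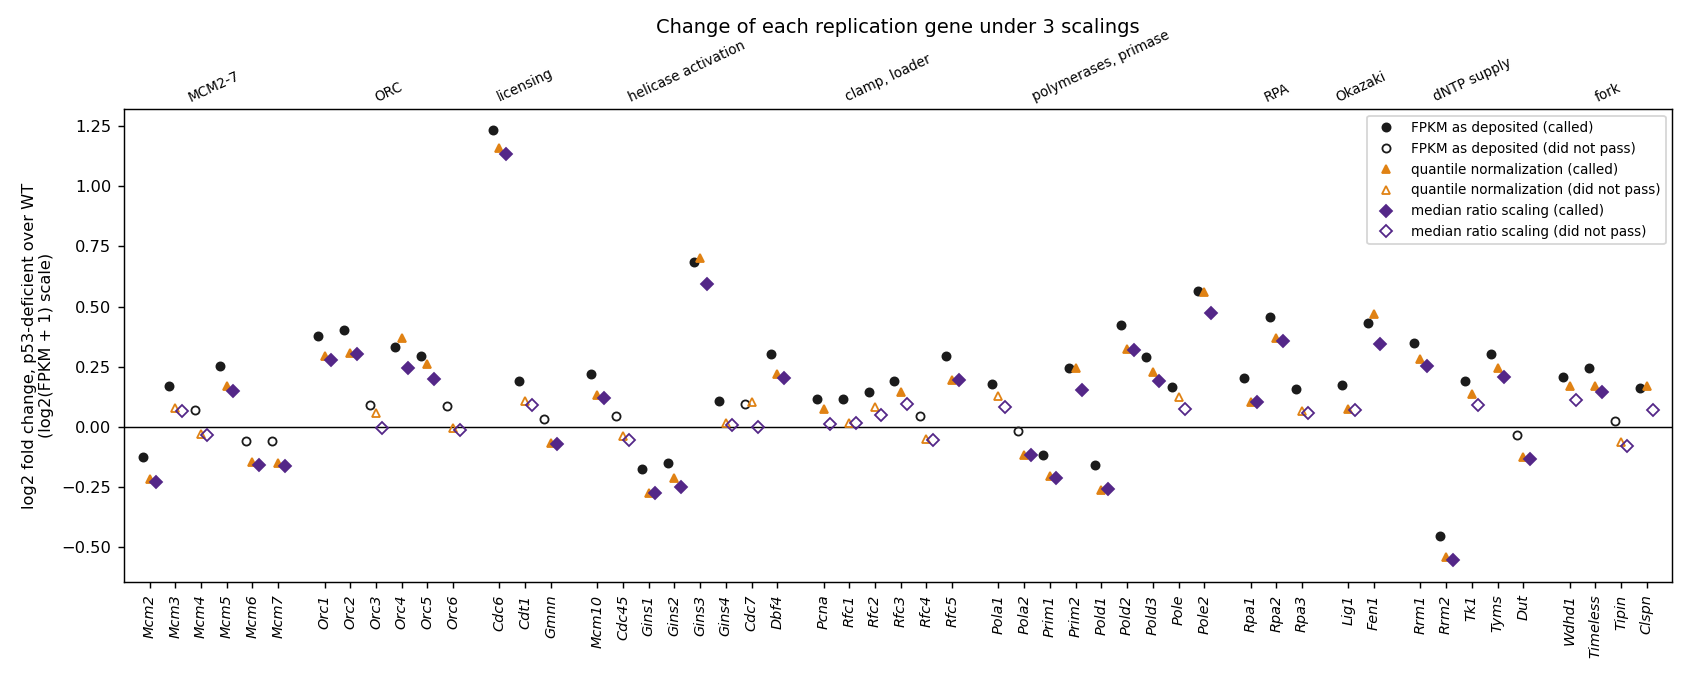
Log2 fold change (p53-deficient over WT, log2(FPKM + 1) scale, vertical axis) of each replication gene, grouped by role along the horizontal axis, under FPKM as deposited, quantile normalization and median ratio scaling. Filled symbols were called and open symbols did not pass. Cdc6 stands near 1.13 to 1.23 under each scaling, and the 14 higher calls lost under median ratio scaling lie close to 0.

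The changes were small and narrowly spread. The median size of the log2 fold change, sign ignored, was 0.18 in the replication genes and 0.29 over all genes tested. Only Cdc6 and Gins3 were called higher by at least 1.5-fold on that scale, where 9.16% of all genes were, and none was called lower by as much, where 13.3% were. The libraries of the groups did not overlap in 44 members, against 71.4% of all genes tested. In 36 of them every p53-deficient library lay above every WT library, against 37.7% of all genes, and in 8 every one lay below, against 33.7%. The 40 called members were all among these 44, and the other 4 were Mcm6, Mcm7, Cdc45 and Cdc7. Replicates were tight, with a median coefficient of variation of 3.36% in p53-deficient and 2.44% in WT libraries, and the fewest rebuilt reads behind any value were 217. Levels were high, since 16 of the 52 were in the top 10% of tested genes by mean FPKM and the lowest, Fen1, was at the 55.1 percentile. Divided at a mean of 20 FPKM, a level chosen after the values were seen, 17 of 21 members below it were higher and 1 lower (35.3% and 31.3% over all genes), with a median log2 fold change of 0.21. Of the 31 at or above it, 17 were higher and 5 lower, with a median of 0.11, and this difference was not tested. For 8 members, Cdc6, Fen1, Gins2, Mcm7, Orc2, Pcna, Rfc5 and Tyms, another gene overlaps much of the exon length or holds a near copy, and the kit is not stated to mark strand. Without these 8, 28 members were higher and 5 lower.

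**Figure D2:**
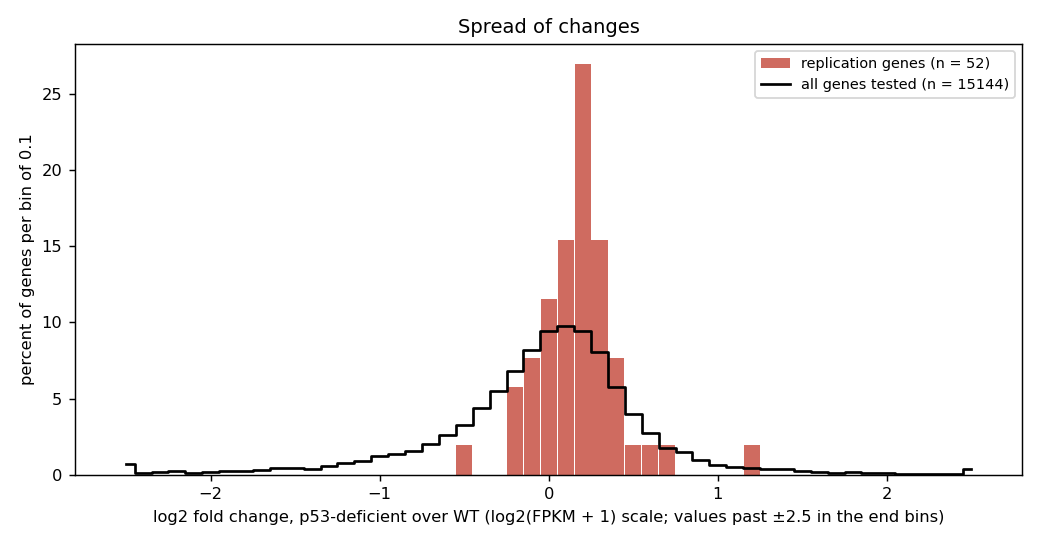
Percent of genes (vertical axis) per bin of log2 fold change (p53-deficient over WT, log2(FPKM + 1) scale, horizontal axis), for 52 replication genes (bars) and all 15144 genes tested (line), with changes past 2.5 in either direction in the end bins. The replication genes gather just above 0, around their median of 0.17, and the line is wider on both sides.

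E2F factors, known regulators of many of these genes, bind promoters through a short GC-rich word, so promoter sequence was searched for it. RefSeq windows (GRCm38.p6, 250 bases before the start site and 50 from it on) were found under the symbol of 43 of the 52 genes, and the other 9 were Gmnn, Gins1, Gins2, Gins4, Mcm4, Pole, Prim2, Rfc2 and Tipin. An E2F-type word was any of TTTCCCGC, TTTCGCGC, TTTGCCGC and TTTGGCGC on either strand. It stood in a window of 16 of the 43 genes (37.2%), against 2.605% of 27025 genes in the promoter table and 4.86% of 10050 that were also tested here. The CCAAT box (CCAAT) was in 24 of 43 (55.8%), against 41.1% and 43.7%, and a cell cycle homology element (TTTGAA or TTCGAA) in 9 (20.9%), against 21.7% and 16.3%. The kinds were searched separately, on both strands, and their overlap with one another was not counted. A match is a run of letters and not a measured binding site. Stretches of 6 genes are shown, from 200 bases before the start site to 30 bases from it on, with E2F-type words in capitals: the largest rises Cdc6 and Gins3, the ORC gene Orc1, the helicase genes Mcm5 and Mcm6, each with a pair of words that share bases, and the largest fall, Rrm2, whose window held none.
Cdc6: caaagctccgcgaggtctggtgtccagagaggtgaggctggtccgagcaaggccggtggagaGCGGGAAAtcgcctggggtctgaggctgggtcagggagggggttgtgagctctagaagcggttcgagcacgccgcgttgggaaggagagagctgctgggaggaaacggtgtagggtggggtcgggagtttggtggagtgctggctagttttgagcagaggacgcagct
Gins3: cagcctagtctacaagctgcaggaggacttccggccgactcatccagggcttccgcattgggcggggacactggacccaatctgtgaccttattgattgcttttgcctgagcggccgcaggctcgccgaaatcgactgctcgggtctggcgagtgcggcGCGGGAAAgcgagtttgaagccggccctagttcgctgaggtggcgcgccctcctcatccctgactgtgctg
Orc1: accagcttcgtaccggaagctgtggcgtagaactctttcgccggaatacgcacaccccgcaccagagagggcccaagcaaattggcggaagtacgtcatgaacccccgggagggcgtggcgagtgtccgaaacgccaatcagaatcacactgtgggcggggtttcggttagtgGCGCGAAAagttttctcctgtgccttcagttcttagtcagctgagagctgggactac
Mcm5: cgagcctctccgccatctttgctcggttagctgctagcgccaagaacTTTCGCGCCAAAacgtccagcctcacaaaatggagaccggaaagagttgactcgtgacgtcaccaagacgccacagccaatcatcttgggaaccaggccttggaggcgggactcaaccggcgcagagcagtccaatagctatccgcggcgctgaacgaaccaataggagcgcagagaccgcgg
Mcm6: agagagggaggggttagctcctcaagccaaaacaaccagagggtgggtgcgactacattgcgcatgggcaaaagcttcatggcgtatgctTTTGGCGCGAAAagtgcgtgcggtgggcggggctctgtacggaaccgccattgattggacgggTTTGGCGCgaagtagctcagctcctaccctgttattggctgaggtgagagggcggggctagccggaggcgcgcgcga
Rrm2: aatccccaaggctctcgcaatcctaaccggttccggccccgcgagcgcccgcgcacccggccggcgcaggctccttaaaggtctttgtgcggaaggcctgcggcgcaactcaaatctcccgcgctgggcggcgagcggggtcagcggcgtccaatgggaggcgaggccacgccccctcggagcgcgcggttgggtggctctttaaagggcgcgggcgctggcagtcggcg

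The stretches lie at chr11:98907951-98908180, plus strand (Cdc6), chr8:95633359-95633588, plus strand (Gins3), chr4:108579254-108579483, plus strand (Orc1), chr8:75109309-75109538, plus strand (Mcm5), chr1:128359676-128359905, minus strand (Mcm6) and chr12:24708054-24708283, plus strand (Rrm2). The start sites are RefSeq's. Those of Cdc6, Gins3 and Orc1 lie 350, 106 and 31 bases inside the deposited gene, so the printed word of each falls within the gene model behind its FPKM. Counted with 0 at the start site, the word of Cdc6 begins at -138, that of Gins3 at -41 and that of Orc1 at -27. In Mcm5 the words begin at -153 and -149, and in Mcm6 at -110, -106 and -47. Among the 16 genes with a word, 12 were higher, 1 was lower and 3 did not pass (35.3% higher and 31.3% lower over all genes), with a median log2 fold change of 0.19. Among the 27 genes whose windows held none, 18 were higher, 3 lower and 6 did not pass, with a median of 0.20. These medians lay close to each other, and their difference was not tested. The 9 genes with no window held 4 higher and 2 lower calls.

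Licensing factors held the largest change. Cdc6 (ENSMUSG00000017499, chromosome 11, 98907801 to 98923940, plus strand, mm10), the ATPase that joins ORC to load the helicase, read 32.3, 33.5 and 33.6 FPKM in p53-deficient libraries, against 13.5, 13.7 and 13.4 FPKM in WT libraries. Each p53-deficient library held over 2 times the level of any WT library, with means of 33.1 ± 0.692 FPKM in p53-deficient and 13.5 ± 0.106 FPKM in WT libraries (SD, n = 3 each) and a linear ratio of 2.45 (log2 fold change 1.23, SE 0.0260, limma adjusted p = 1.84e-07). A copy of Cdc6 at 95.2% identity, Gm9430, was listed at 0 FPKM in every library. Cdt1, the other loading factor, read 48.05, 41.8 and 47.1 FPKM in p53-deficient libraries, against 40.8, 37.97 and 40.6 FPKM in WT libraries. The groups did not overlap (log2 fold change 0.19, SE 0.0584, limma adjusted p = 0.0253). The call ended under both scaling alternatives, without a filter, and without p53-deficient replicate 1 or 3 or WT replicate 2, where the log2 fold change was 0.15, 0.17 and 0.16. Gmnn encodes geminin, which binds CDT1 and blocks a second round of licensing, and it had the highest level of Cdc6, Cdt1 and Gmnn at 78.00, 75.8 and 75.6 FPKM in p53-deficient libraries, against 73.2, 76.4 and 74.7 FPKM in WT libraries. The groups overlapped and it did not pass (log2 fold change 0.032, SE 0.0254, limma adjusted p = 0.305), but it was called lower after median ratio scaling, at -0.069, and after quantile normalization, at -0.067.

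The origin recognition complex was higher in 4 of its 6 genes, where 35.3% of all genes tested were higher, and the other two did not pass. Orc2 (ENSMUSG00000026037, chromosome 1, 58462771 to 58505109, minus strand, mm10) read 29.5, 29.5 and 30.6 FPKM in p53-deficient libraries, against 22.9, 21.7 and 22.4 FPKM in WT libraries. Every p53-deficient library was higher than every WT library (log2 fold change 0.40, SE 0.0305, limma adjusted p = 4.04e-05). Opposite-strand exons of Nif3l1 cover 29.8% of the exon length of Orc2, and without strand their reads cannot be told apart, although Nif3l1 itself did not pass (log2 fold change 0.078). Orc1, the subunit that comes and goes with the cell cycle in mammals and whose promoter is printed above, was higher (means of 25.3 FPKM in p53-deficient and 19.2 FPKM in WT libraries, log2 fold change 0.38). Orc4 (means of 7.95 FPKM in p53-deficient and 6.10 FPKM in WT libraries, log2 fold change 0.33) and Orc5 (means of 12.5 FPKM in p53-deficient and 10.02 FPKM in WT libraries, log2 fold change 0.29), further subunits, were higher too. These 4 calls held under both scalings. Orc6, the most abundant at 33.9, 31.9 and 33.2 FPKM in p53-deficient libraries, against 32.2, 30.8 and 30.02 FPKM in WT libraries, overlapped between the groups and did not pass (log2 fold change 0.087, SE 0.0360, limma adjusted p = 0.0703), and nor did Orc3 (means of 11.4 FPKM in p53-deficient and 10.7 FPKM in WT libraries, log2 fold change 0.091). Without p53-deficient replicate 2, both were called higher, at 0.11 for Orc6 and 0.14 for Orc3, and Orc6 was also called without WT replicate 1, at 0.11. Summed over the 6 genes, the level was 120.1 ± 2.91 FPKM in p53-deficient and 99.4 ± 1.32 FPKM in WT libraries (SD, n = 3 each), and it stayed apart after median ratio scaling. Among the other role groups, the sums of helicase activation, clamp and loader, and fork genes overlapped after that scaling. The rest stayed apart.

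The 6 helicase genes moved apart from one another, with 2 higher and 1 lower, where 35.3% of all genes tested were higher and 31.3% lower. Mcm5 (ENSMUSG00000005410, chromosome 8, 75109569 to 75128439, plus strand, mm10) read 124, 126 and 123 FPKM in p53-deficient libraries, against 103, 105 and 105 FPKM in WT libraries. All p53-deficient libraries were higher (log2 fold change 0.25, SE 0.0205, limma adjusted p = 5.72e-05). Mcm3 was higher as well (means of 114 FPKM in p53-deficient and 101 FPKM in WT libraries, log2 fold change 0.17), although it did not pass under either scaling alternative. Mcm2 read 62.5, 62.05 and 62.98 FPKM in p53-deficient libraries, against 68.9, 69.3 and 66.6 FPKM in WT libraries. Here all p53-deficient libraries were lower (log2 fold change -0.13, SE 0.0237, limma adjusted p = 0.00320), also under both scalings. Mcm7 read 98.2, 98.7 and 95.7 FPKM in p53-deficient libraries, against 103, 100.1 and 101 FPKM in WT libraries. Like Mcm6 (means of 82.4 FPKM in p53-deficient and 85.8 FPKM in WT libraries, log2 fold change -0.058), it was lower in each p53-deficient library without passing (log2 fold change -0.058, SE 0.0233, limma adjusted p = 0.0632). Mcm6 and Mcm7 were called lower under both scaling alternatives and with voom, and Mcm6 also with array weights and without p53-deficient replicate 1, at -0.072. Mcm4 overlapped and did not pass (means of 82.4 FPKM in p53-deficient and 78.6 FPKM in WT libraries, log2 fold change 0.069). Summed over the 6 helicase genes, the mean level was 563 FPKM in p53-deficient and 540 FPKM in WT libraries. After median ratio scaling this order turned, at 545 in p53-deficient and 560 in WT libraries, and the groups lay apart both ways. Although the 6 subunits sit in a single ring in equal number, their transcripts were unequal per length. In p53-deficient libraries the order of mean levels was Mcm5 at 124 FPKM, Mcm3 at 114, Mcm7 at 97.5, Mcm4 and Mcm6 at 82.4 each and Mcm2 at 62.5 FPKM. In WT libraries it was Mcm5 at 104 FPKM, Mcm7 at 102, Mcm3 at 101, Mcm6 at 85.8, Mcm4 at 78.6 and Mcm2 at 68.3 FPKM. The libraries of Mcm7 and Mcm3 overlapped in WT but not in p53-deficient cells, those of Mcm5 and Mcm7 overlapped in WT cells, and those of Mcm4 and Mcm6 overlapped in p53-deficient but not in WT cells.

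**Figure D3:**
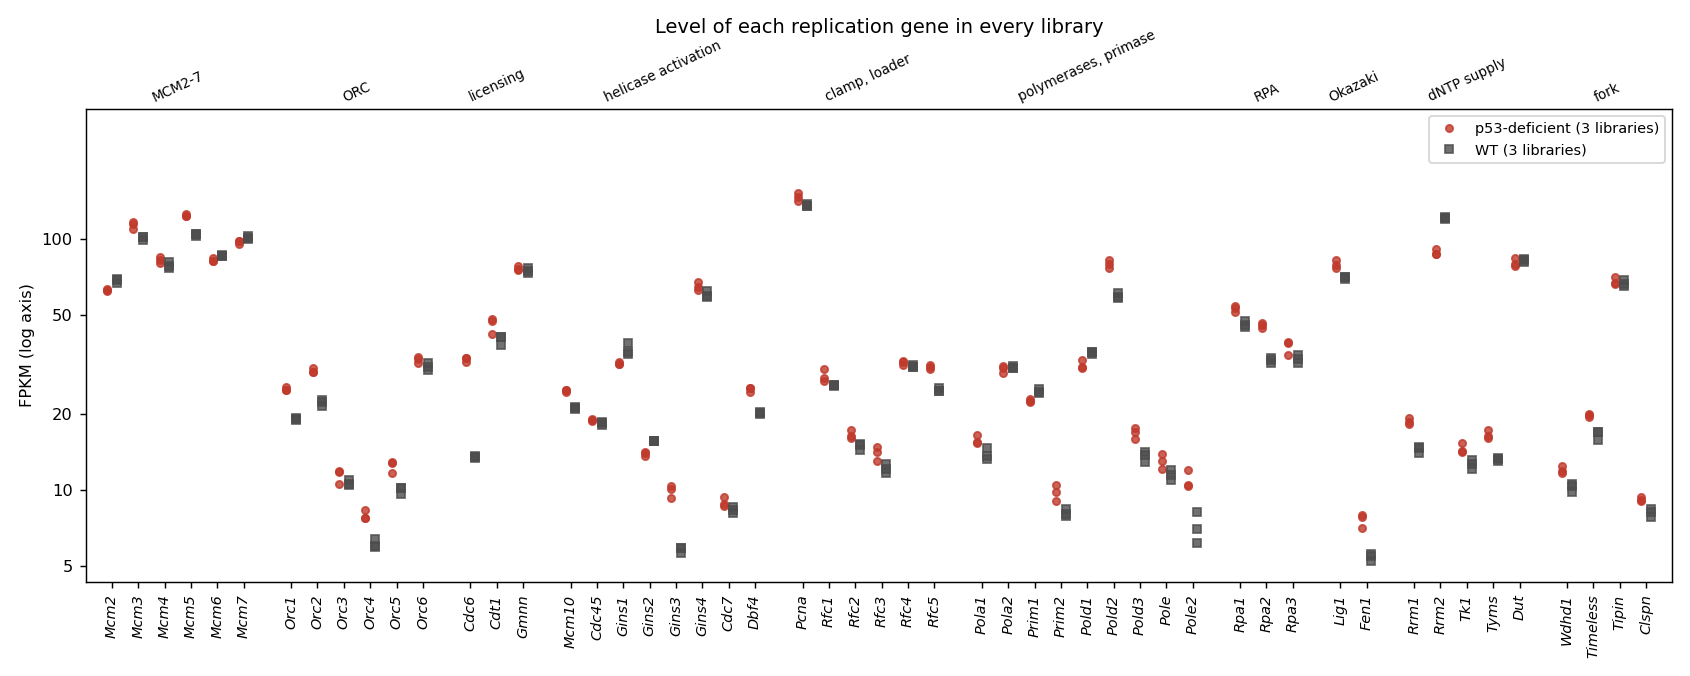
FPKM on a log axis (vertical) of each of 52 replication genes (horizontal, grouped by role) in every library, with 3 p53-deficient libraries as circles and 3 WT libraries as squares. Cdc6, at 32.3 to 33.6 FPKM in p53-deficient and 13.4 to 13.7 FPKM in WT libraries, is the widest gap, and Rrm2 is the clearest case with WT on top.

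Of the 8 genes that switch the helicase on, 4 were higher and 2 lower, where 35.3% of all genes tested were higher and 31.3% lower. The 4 GINS genes encode the subunits of a single complex, yet Gins3 rose and Gins1 and Gins2 fell. Gins3 (ENSMUSG00000031669, chromosome 8, 95633453 to 95645060, plus strand, mm10) read 10.1, 10.4 and 9.27 FPKM in p53-deficient libraries, against 5.86, 5.88 and 5.63 FPKM in WT libraries. The lowest p53-deficient library was well above the highest WT library (log2 fold change 0.68, SE 0.0475, limma adjusted p = 2.77e-05). Gins1 read 31.9, 32.4 and 31.7 FPKM in p53-deficient libraries, against 38.6, 35.4 and 34.9 FPKM in WT libraries. All p53-deficient libraries were lower, and WT replicate 1 stood highest (log2 fold change -0.17, SE 0.0409, limma adjusted p = 0.00851). Gins2 read 14.1, 14.2 and 13.7 FPKM in p53-deficient libraries, against 15.7, 15.6 and 15.7 FPKM in WT libraries, again lower in every p53-deficient library (log2 fold change -0.15, SE 0.0261, limma adjusted p = 0.00206). These 3 calls held under both scalings, but 67.3% of the exon length of Gins2 is covered by opposite-strand exons of Gse1, which itself was lower (log2 fold change -0.74), so the fall of Gins2 is uncertain. Gins4, the most abundant of the complex, read 67.3, 64.5 and 62.6 FPKM in p53-deficient libraries, against 59.1, 62.3 and 58.7 FPKM in WT libraries. The groups came close without overlapping (log2 fold change 0.11, SE 0.0369, limma adjusted p = 0.0376). The call ended under both scalings, at 0.0071 after median ratio scaling and 0.018 after quantile normalization. It also ended without a filter, without a variance trend, with voom and without p53-deficient replicate 1 or 2 or WT replicate 1 or 3. Leaving out each of these libraries gave log2 fold changes of 0.081 to 0.11.

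Of the remaining activation genes, Dbf4, the regulatory partner of the CDC7 kinase, was higher (means of 25.1 FPKM in p53-deficient and 20.2 FPKM in WT libraries, log2 fold change 0.30). Cdc7 itself did not pass (means of 8.94 FPKM in p53-deficient and 8.31 FPKM in WT libraries, log2 fold change 0.093). Mcm10, a helicase cofactor, was higher (means of 24.9 FPKM in p53-deficient and 21.2 FPKM in WT libraries, log2 fold change 0.22). Cdc45 read 19.05, 18.9 and 19.2 FPKM in p53-deficient libraries, against 18.6, 18.5 and 18.2 FPKM in WT libraries. Its groups did not overlap, but the difference was small and did not pass (log2 fold change 0.045, SE 0.0238, limma adjusted p = 0.140).

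The clamp and its loader, replication factor C, were called higher in 5 of 6 genes, where 35.3% of all genes tested were, and in 1 of 6 after median ratio scaling, where 27.8% were. Rfc5, a small loader subunit, read 31.5, 30.4 and 30.9 FPKM in p53-deficient libraries, against 25.5, 24.8 and 24.9 FPKM in WT libraries. All p53-deficient libraries were higher (log2 fold change 0.29, SE 0.0253, limma adjusted p = 7.51e-05), and it was the one call of this group that held under both scalings. Pcna, which had the highest level of the 52 genes in both groups, read 148, 152 and 142 FPKM in p53-deficient libraries, against 138, 135 and 136 FPKM in WT libraries. The groups did not overlap (log2 fold change 0.11, SE 0.0290, limma adjusted p = 0.0119), but the call ended under median ratio scaling. Its processed copy Pcna-ps2, which matches it at 99.2% over 781 bases, read 76.8, 71.5 and 77.7 FPKM in p53-deficient libraries, against 65.6, 67.7 and 71.9 FPKM in WT libraries, so the split of reads between gene and copy is uncertain. The loader subunit genes Rfc1, Rfc2 and Rfc3 were higher with log2 fold changes of 0.12, 0.14 and 0.19, and none of these calls passed under median ratio scaling. The calls of Rfc1 and Rfc2 also ended under quantile normalization. That of Rfc1 ended besides without a filter, without a variance trend and without p53-deficient replicate 3 or any of the WT replicates, at 0.11 to 0.13. That of Rfc3 ended without p53-deficient replicate 1 or WT replicate 2, at 0.15 and 0.16. Rfc4 read 32.6, 32.3 and 31.6 FPKM in p53-deficient libraries, against 31.6, 30.9 and 30.8 FPKM in WT libraries. Its groups met at 31.6 FPKM and it did not pass (log2 fold change 0.047).

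Of the 9 polymerase and primase genes, 6 were higher and 2 lower, where 35.3% of all genes tested were higher and 31.3% lower. DNA polymerase delta makes most of the lagging strand, and its catalytic gene Pold1 read 33.02, 30.99 and 30.6 FPKM in p53-deficient libraries, against 34.9, 35.6 and 35.5 FPKM in WT libraries. It was lower in all p53-deficient libraries (log2 fold change -0.16, SE 0.0335, limma adjusted p = 0.00513). Its accessory gene Pold2 read 82.6, 76.7 and 79.8 FPKM in p53-deficient libraries, against 58.7, 60.9 and 58.1 FPKM in WT libraries, the other way round (log2 fold change 0.42, SE 0.0344, limma adjusted p = 5.73e-05). Pold3, a further accessory subunit, was higher (means of 16.9 FPKM in p53-deficient and 13.6 FPKM in WT libraries, log2 fold change 0.29). Polymerase epsilon makes most of the leading strand. Its accessory gene Pole2 read 10.5, 10.4 and 12.1 FPKM in p53-deficient libraries, against 7.01, 8.15 and 6.17 FPKM in WT libraries. These were the most variable values of the 52 genes, yet the groups did not overlap (log2 fold change 0.57, SE 0.0987, limma adjusted p = 0.00218). The catalytic gene Pole was higher (means of 13.01 FPKM in p53-deficient and 11.5 FPKM in WT libraries, log2 fold change 0.17), but not under either scaling, without a filter, or without p53-deficient replicate 2 or 3 or WT replicate 1 or 2. Leaving out each of these libraries gave log2 fold changes of 0.12 to 0.17. In the polymerase alpha and primase complex, which starts each new strand, the small primase gene Prim1 was lower (means of 22.7 FPKM in p53-deficient and 24.7 FPKM in WT libraries, log2 fold change -0.11) and the large one Prim2 higher (means of 9.80 FPKM in p53-deficient and 8.11 FPKM in WT libraries, log2 fold change 0.24). The catalytic gene Pola1 was higher (means of 15.8 FPKM in p53-deficient and 13.9 FPKM in WT libraries, log2 fold change 0.18), but not under either scaling. Its accessory gene Pola2 read 30.7, 29.3 and 31.1 FPKM in p53-deficient libraries, against 30.6, 31.1 and 30.6 FPKM in WT libraries. The groups overlapped and it did not pass, but was called lower under both scalings at -0.12.

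**Figure D4:**
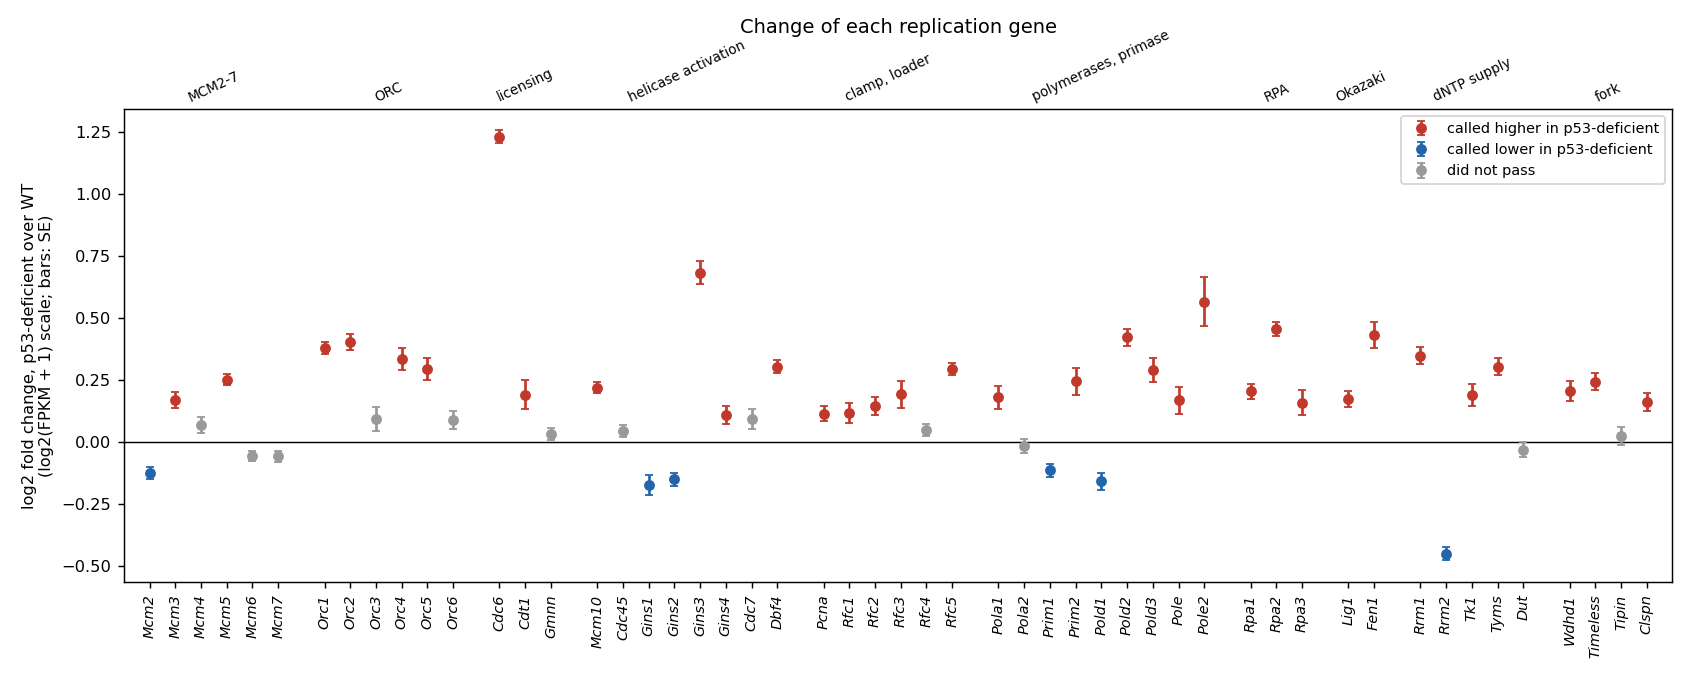
Log2 fold change (p53-deficient over WT, log2(FPKM + 1) scale, vertical axis) of each replication gene with its SE, grouped by role along the horizontal axis. Of 52 genes, 34 were called higher, 6 lower and 12 did not pass, and polymerase, GINS and helicase genes stand on both sides of 0.

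Replication protein A coats single-stranded DNA at the fork, and its 3 genes were all higher with FPKM as deposited, where 35.3% of all genes tested were. Rpa2, the middle subunit, read 46.1, 44.4 and 45.5 FPKM in p53-deficient libraries, against 31.96, 33.4 and 32.97 FPKM in WT libraries. All p53-deficient libraries were higher (log2 fold change 0.46, SE 0.0274, limma adjusted p = 1.46e-05). Rpa1, the large DNA-binding subunit and the most abundant, read 53.97, 53.3 and 51.4 FPKM in p53-deficient libraries, against 47.1, 45.5 and 44.7 FPKM in WT libraries, also with no overlap (log2 fold change 0.20, SE 0.0301, limma adjusted p = 0.000999). Rpa3, the small subunit, was higher (means of 37.3 FPKM in p53-deficient and 33.2 FPKM in WT libraries, log2 fold change 0.16), a call that ended under both scalings, without a filter, and without p53-deficient replicate 1 or 2 or WT replicate 2 or 3. Leaving out each of these libraries gave log2 fold changes of 0.13 to 0.16. In Okazaki fragment maturation, the flap nuclease gene Fen1 read 7.83, 7.97 and 7.07 FPKM in p53-deficient libraries, against 5.19, 5.45 and 5.53 FPKM in WT libraries. The groups lay apart (log2 fold change 0.43, SE 0.0519, limma adjusted p = 0.000369). Opposite-strand exons of Gm10143 cover 78.8% of the exon length of Fen1, so its low level and its change are uncertain. The ligase gene Lig1 read 82.5, 76.4 and 78.9 FPKM in p53-deficient libraries, against 69.1, 70.9 and 70.3 FPKM in WT libraries, likewise apart (log2 fold change 0.17, SE 0.0320, limma adjusted p = 0.00285), which did not pass under median ratio scaling.

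The largest fall of the 52 genes, of under 1.5-fold, was in a deoxynucleotide gene. Of the 5 such genes, 3 were higher and 1 lower, where 35.3% of all genes tested were higher and 31.3% lower. Ribonucleotide reductase makes deoxynucleotides from a large subunit, encoded by Rrm1, and a small one, encoded by Rrm2 in S phase. Rrm2 (ENSMUSG00000020649, chromosome 12, 24708241 to 24714146, plus strand, mm10) read 87.1, 86.9 and 91.4 FPKM in p53-deficient libraries, against 122, 120.4 and 122 FPKM in WT libraries. Each p53-deficient library was below each WT library (log2 fold change -0.45, SE 0.0262, limma adjusted p = 1.23e-05), at means of 88.5 ± 2.55 FPKM in p53-deficient and 121 ± 0.854 FPKM in WT libraries (SD, n = 3 each). Rrm1 was higher (means of 18.8 FPKM in p53-deficient and 14.5 FPKM in WT libraries, log2 fold change 0.35). So was Tyms, which encodes thymidylate synthase (means of 16.6 FPKM in p53-deficient and 13.3 FPKM in WT libraries, log2 fold change 0.30). Tk1, which encodes the salvage enzyme thymidine kinase, was higher (means of 14.6 FPKM in p53-deficient and 12.7 FPKM in WT libraries, log2 fold change 0.19), a call lost under median ratio scaling. Dut, whose product keeps uracil out of DNA, read 84.1, 78.2 and 79.7 FPKM in p53-deficient libraries, against 83.2, 82.9 and 81.3 FPKM in WT libraries. The groups overlapped and it did not pass, but was called lower under both scalings at -0.13 after median ratio scaling and -0.12 after quantile normalization. The p53-induced small subunit gene Rrm2b, outside the 52, was low and read 0.879, 0.805 and 0.782 FPKM in p53-deficient libraries, against 1.55, 1.66 and 1.55 FPKM in WT libraries, a fall with log2 fold change -0.50.

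Of the 4 genes of fork protection and mediation, 3 were higher, where 35.3% of all genes tested were, and Timeless alone held its call under both scalings. Timeless, which encodes a part of the fork protection complex, read 20.05, 19.5 and 19.9 FPKM in p53-deficient libraries, against 16.96, 16.98 and 15.9 FPKM in WT libraries. All p53-deficient libraries were higher (log2 fold change 0.24, SE 0.0338, limma adjusted p = 0.000748). Its partner Tipin, the most abundant of these genes, read 70.8, 66.8 and 65.9 FPKM in p53-deficient libraries, against 65.03, 68.9 and 66.1 FPKM in WT libraries. The groups overlapped and it did not pass. Wdhd1 encodes an adaptor between helicase and polymerase alpha and was higher (means of 12.00 FPKM in p53-deficient and 10.3 FPKM in WT libraries, log2 fold change 0.21). Clspn encodes claspin, a mediator of the replication checkpoint, and was higher (means of 9.19 FPKM in p53-deficient and 8.11 FPKM in WT libraries, log2 fold change 0.16). The calls of Wdhd1 and Clspn did not hold under median ratio scaling.

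Ratios between partners within a library do not change when the library is rescaled. The 10 pairs shown were chosen after the values were seen, and several join partners already known to differ in direction, so the gaps between groups are a description and their number is no result. Rrm2 over Rrm1 was 4.74, 4.66 and 4.72 in p53-deficient libraries, against 8.27, 8.55 and 8.22 in WT libraries. Gins3 over Gins1 was 0.309 ± 0.0152 in p53-deficient and 0.160 ± 0.00735 in WT libraries (SD, n = 3 each). Each value of the p53-deficient libraries was thus lower for Rrm2 over Rrm1 and higher for Gins3 over Gins1. Pold2 over Pold1 was 2.53 ± 0.0708 in p53-deficient and 1.68 ± 0.0364 in WT libraries, and Mcm5 over Mcm2 was 1.99 ± 0.0381 in p53-deficient and 1.53 ± 0.0391 in WT libraries (SD, n = 3 each). The licensing pair Cdt1 over Gmnn overlapped, at 0.616, 0.551 and 0.624 in p53-deficient libraries, against 0.558, 0.497 and 0.544 in WT libraries. A shifted ratio shows unequal change of the partners and not which of them changed, and the levels rest on the deposited gene lengths.

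**Figure D5:**
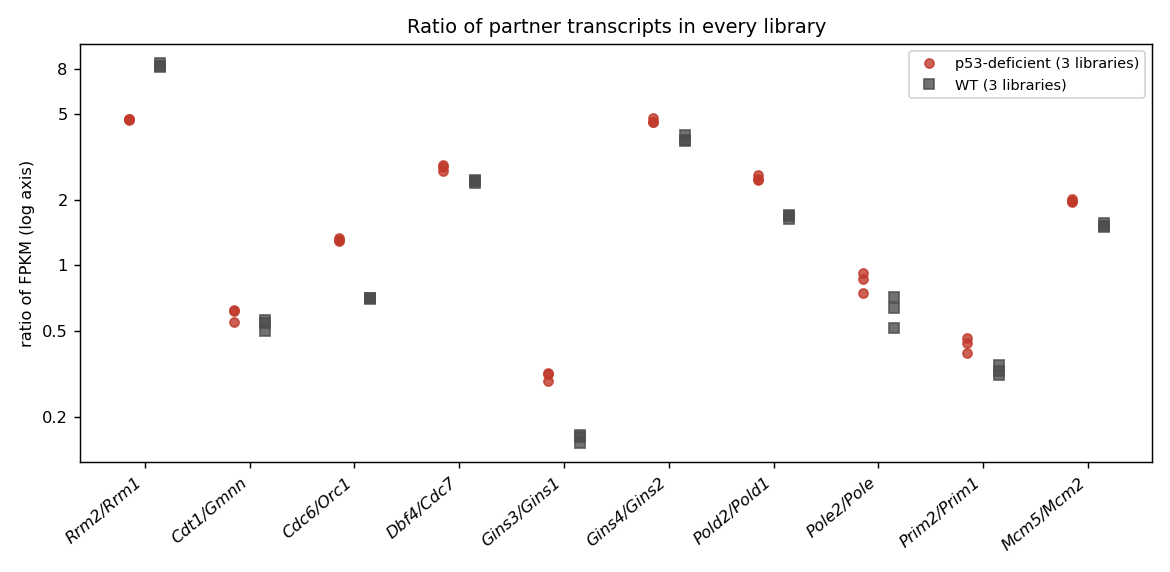
Ratio of FPKM between 2 partner transcripts (log axis, vertical) in each library for 10 pairs (horizontal), with p53-deficient libraries as circles and WT libraries as squares. Rrm2 over Rrm1 is 4.66 to 4.74 in p53-deficient and 8.22 to 8.55 in WT libraries, and the groups overlap for Cdt1 over Gmnn.

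Other genes of the pathway gave counts to be read against 35.3% higher and 31.3% lower over all genes, with log2 fold changes on the same scale. Among 17 further genes of origin licensing and firing, 10 were higher and 4 lower. Skp2, which encodes a ubiquitin ligase subunit that targets p27 and CDT1, read 14.5, 14.4 and 15.5 FPKM in p53-deficient libraries, against 7.81, 7.89 and 7.81 FPKM in WT libraries (log2 fold change 0.84). Donson, a helicase activation factor, had a log2 fold change of 0.60, and Cul4a, a scaffold of the ligase that degrades CDT1, one of -0.48. Of 17 further polymerase, clamp and Okazaki genes, 8 were higher and 6 lower. The translesion polymerase gene Polk read 1.51, 1.48 and 1.62 FPKM in p53-deficient libraries, against 7.25, 7.33 and 6.96 FPKM in WT libraries (log2 fold change -1.69). Pold4, the smallest delta subunit, had a log2 fold change of -0.95, and Chtf8, of the alternative clamp loader, one of 0.64. Among 14 further deoxynucleotide genes 8 were higher and 2 lower. Samhd1, which encodes a dNTP hydrolase, had a log2 fold change of 0.66, Umps of pyrimidine synthesis 0.59, and Dctpp1, which removes faulty nucleotides, 0.52. Of 9 genes of replication-coupled chromatin and methylation, 6 were higher and 2 lower, led on the log2 fold change scale by the histone chaperone gene Asf1a at 0.57, Mms22l, which acts in fork repair, at 0.48 and Chaf1a, a subunit of chromatin assembly factor, at 0.42.

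Checkpoint and regulator genes moved both ways. Of 14 genes of fork stalling and the S phase checkpoint, 7 were higher and 5 lower, with log2 fold changes for Etaa1, an activator of the kinase ATR, of 0.75, for the fork remodeller Hltf of 0.52 and for Zranb3, another remodeller, of -0.43. Among 19 E2F and pocket protein regulators, 12 were higher and 5 lower. The retinoblastoma gene Rb1 read 0.316, 0.388 and 0.377 FPKM in p53-deficient libraries, against 3.59, 3.69 and 3.40 FPKM in WT libraries (log2 fold change -1.74, SE 0.0587, limma adjusted p = 1.19e-06). Fibroblast markers fell in the same libraries, with a summed level of 528 to 556 FPKM in p53-deficient and 1900.3 to 1908 FPKM in WT libraries, and their part in the fall of Rb1 was not tested. E2f8, an atypical repressor, read 11.1, 10.95 and 10.9 FPKM in p53-deficient libraries, against 5.62, 5.40 and 5.97 FPKM in WT libraries (log2 fold change 0.85), and E2f2, an activator, had a log2 fold change of 0.74. The other activators differed, with E2f3 higher at 0.25 and the more abundant E2f1 lower at -0.35. Means of E2f1 were 17.1 FPKM in p53-deficient and 22.1 FPKM in WT libraries. Of 20 G2 and M phase genes, 10 were higher and 6 lower with a median log2 fold change of 0.11. Cdc25c, a mitotic phosphatase gene, had 0.46, the spindle checkpoint gene Bub1b 0.37 and the kinetochore motor gene Cenpe -0.43 on that scale.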

How the data were processed

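RNA of 3 p53-deficient and 3 WT haploid embryonic stem cell libraries was read from poly-T-purified mRNA with the NEBNext Ultra kit, per the labels' protocols. The authors deposited FPKM per gene and library. HISAT2 2.0.5, featureCounts 1.5.0-p3 and build mm10 are named, with no roles, per the submitters' processing notes. Multiplied by gene length, 100% of FPKM values above 0 fell on whole multiples of 1 step per library (tolerance 0.001 reads), and reads were rebuilt that way. The treatment of reads that match several places was not given in the sources used here.

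Genes with a mean FPKM of 0.5 or more over the 6 libraries, 15144 in all, entered the test. On log2(FPKM + 1), limma 3.58.1 (R 4.3.3) was fitted with a variance trend, and two-sided p-values were adjusted by Benjamini-Hochberg over all genes tested. Calls were made at adjusted p under 0.05. A log2 fold change on this scale understates the change of genes with low FPKM. For a single gene, exact permutation of 3 against 3 libraries cannot give p below 0.1. The members, gene lists and tests were chosen with earlier results of these data known. All 52 members were matched by name and tested. Full values are given for the 5 called members that rose most and the 5 that fell most, and in each role group for the largest called change, the highest level and, of those that did not pass, the most abundant. In the other lists up to 3 called genes of largest change are named, and other named genes were chosen after their values were seen.

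Exon overlap came from GENCODE mouse release M21, in which 98.3% of matched genes had the deposited coordinates. Copies were sought with BLAST+ 2.17.0 at 95% identity over at least 500 bases and 50% of the copy's transcript. Promoter windows are RefSeq's on GRCm38.p6. The fit was tested on simulated reads in which 200 genes were changed, 50 at each fold. Changes of 1.15-fold, 1.25-fold, 1.5-fold and 2-fold were recovered in 4%, 52%, 94% and 100% of those genes. Of the unchanged genes, 17 were called. In the data 66.5% of genes were called, so the simulation differs from them and these shares need not hold here. The 16 alternatives run were median ratio scaling, quantile normalization, pseudocount 0.1, no low-level filter, a filter at 5 FPKM, voom on the rebuilt reads, a fit without the trend, one with array weights, one with a replicate block, one on protein-coding genes, and each library left out in turn. Leaving out members that share sequence was added after the data were seen.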

Additional observations from a re-analysis of the deposited data

How the results depend on the processing

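With median ratio scaling, 20 replication genes were higher and 11 lower, and their median log2 fold change was 0.073. Over all genes tested, that scaling gave 27.8% higher and 37.3% lower, with a median of -0.052. With quantile normalization 26 replication genes were higher, 11 lower and their median was 0.11. All genes tested then gave 36.7% higher and 29.8% lower, with a median of 0.053. Geminin (Gmnn) changed sign and was called lower at -0.069 after median ratio scaling and -0.067 after quantile normalization (limma adjusted p = 0.0387 and 0.0393). Of the 7752 genes of mean FPKM at least 5, 3676 were higher and 2268 lower, with a median log2 fold change of 0.097. At the filter of 0.5, with FPKM as deposited, 5341 of 15144 genes were higher and 4733 lower, with a median of 0.028. Members gave 34 higher and 6 lower at either filter. The replicate number as a block gave 35 higher and 6 lower members, Mcm4 being the added one, and 5187 higher and 4579 lower genes in all. Same-numbered libraries correlated at -0.033, 0.014 and 0.0056 in their deviations from the group means. These values, over all genes tested, showed no pairing by number, but they cannot exclude a batch that touches some genes. Leaving out each library gave 29 to 33 higher and 6 to 7 lower members, with medians of 0.15 to 0.19, and 4925 to 5111 higher and 4268 to 4635 lower genes in all. Of 52 members, 30 had the same call in each of the 16 alternatives, 20 higher and 6 lower among them. Each member rests on at least 217 reads in every library. Without the 8 members that share sequence with another gene, the median log2 fold change was 0.17.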
